A study of Homo sapiens with 10 samples.

Results

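The immunoproteasome and the aminopeptidases of the endoplasmic reticulum (ER) were followed here through 7 protein-coding genes: PSMB8, PSMB9, PSMB10, PSME1, PSME2, ERAP1 and ERAP2. They were taken by symbol and gene type from the 60603 genes listed for each experiment, of which 19975 are protein-coding. All 7 were found once in each table. RNA came from NB4, an established line of acute promyelocytic leukemia cells, in 2 mRNA-seq experiments. The knockdown experiment holds 6 libraries, collected 48 h after lentiviral transduction: 2 with pLKO.1 puro that held no hairpin (EV), 2 with this vector bearing the short hairpin shA1 and 2 with it bearing shB2, both hairpins directed at GSE1. The MC2580 experiment holds 4 libraries after 24 h, 2 treated with DMSO and 2 with 2 µM MC2580, an inhibitor of the demethylase LSD1, and one set of sample titles spells the compound MC280. All groups share the NB4 background, and both the controls and the hairpin cells of the knockdown were transduced with lentivirus.

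The value available for each gene was the base mean, which is the authors' mean over every library of an experiment of counts divided by size factors. It pools the control with the treated groups, so it carries no spread between replicates and does not show what a hairpin or MC2580 did. The columns of the authors' own comparisons were not used, no value per library was analysed, and no difference between conditions is given below. Every value is therefore a description without a test, and the depth behind it is unknown.

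The proteasome is a barrel of stacked rings that cuts ubiquitin-tagged proteins into peptides. Interferon makes cells exchange the catalytic subunits of the barrel for PSMB8, PSMB9 and PSMB10, and the resulting immunoproteasome yields more peptides with ends that suit MHC class I. PSME1 and PSME2 form PA28 alpha-beta, a ring that caps the barrel and speeds peptide release, while ERAP1 and ERAP2 trim the amino ends of peptides inside the ER before they are loaded. In the myeloid lineage these genes belong to the machinery by which a cell displays its contents to T cells.

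The genes lie at 4 places in GRCh38. PSMB8 (chr6:32840717-32844679, minus strand) and PSMB9 (chr6:32844136-32859851, plus strand) sit in the MHC beside TAP1, a subunit of the peptide transporter. PSME1 (chr14:24136163-24138967, plus strand) and PSME2 (chr14:24143362-24147570, minus strand) face each other, with the ends of their transcripts 4403 bases apart. ERAP1 (chr5:96760810-96808100, minus strand) and ERAP2 (chr5:96875986-96919703, plus strand) have start sites 68555 bases apart. PSMB10 (chr16:67934506-67936864, minus strand) is the only one of these genes on its chromosome. The MANE Select transcripts of the proteasome genes have between 6 and 11 exons and 793 to 1124 bases, against 19 exons each and 4841 and 5131 bases for ERAP1 and ERAP2.

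The promoters of 6 of the 7 genes hold a match to the interferon-stimulated response element, the sequence to which interferon regulatory factors and the ISGF3 complex bind. It was searched as GAAANNGAAA on both strands, from 250 bases before to 50 bases after each start site in RefSeq (GRCh38.p14), and a match is a string of letters rather than a measured binding site. Of the 35116 windows of all genes 3.57% hold such a match, and of 27305 genes with a window 4.38% do. The stretches are shown for the 6 genes that hold one. Only this motif and the gamma-activated site given below were searched, so other shared sequence was not examined. Each is 30 bases, 5′ to 3′ on the strand of its gene, with the match in capitals:

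PSMB8, chr6:32844032-32844061, minus strand: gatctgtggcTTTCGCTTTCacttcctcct

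PSMB10, chr16:67936852-67936881, minus strand: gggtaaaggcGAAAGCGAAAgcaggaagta

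PSME1, chr14:24136189-24136218, plus strand: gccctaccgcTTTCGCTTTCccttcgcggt

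PSME2, chr14:24146619-24146648, minus strand: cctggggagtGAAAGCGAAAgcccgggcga

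ERAP1, chr5:96807924-96807953, minus strand: cgggctccacTTTCACTTTCggtcctgggg

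ERAP2, chr5:96876460-96876489, plus strand: tcttagaacaGAAAGTGAAAgcaaaagtaa

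Read on the strand of the motif, the 4 proteasome genes carry GAAAGCGAAA and both aminopeptidase genes carry GAAAGTGAAA. The match runs along the gene in PSMB10, PSME2 and ERAP2 and on the opposite strand in PSMB8, PSME1 and ERAP1. In all 6 genes it lies close to the start site of the MANE Select transcript. Its first base is 4 bases upstream of the start in PSMB8, 21 in PSMB10, 28 in PSME2 and 30 in ERAP2, and 5 bases downstream in PSME1 and 2 in ERAP1.

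The window of PSMB9 has no match. Its start site is 488 bases from that of TAP1, which is transcribed in the opposite direction, and the TAP1 window holds 2 overlapping matches that lie between both starts, 354 and 360 bases from the start of PSMB9. One of them, shown on the TAP1 strand with its match in capitals, has the same letters as in PSMB8 and PSME1:

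TAP1, chr6:32853813-32853842, minus strand: ccgctttcgaTTTCGCTTTCccctaaatgg

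Among related genes with a window, matches were found in TAP1, TAP2, TAPBP and B2M of 9 peptide loading genes, in PSMA4 and PSMB4 of 9 other subunits of the 20S core, in 0 of 17 genes of the 19S particle and in 0 of 8 M1 aminopeptidases. The windows of PSMB5 held no match, and PSMB6 and PSMB7 were not in the table. The gamma-activated site, searched as TTCNNNGAA, was found in 1 of the 7 genes, PSMB8, where it begins 65 bases upstream of the start, and in 9.38% of all genes.

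All 7 genes were expressed in NB4. The base means in the knockdown experiment were 1605 for PSMB8, 668 for PSMB9, 2479 for PSMB10, 6083 for PSME1, 5866 for PSME2, 1500 for ERAP1 and 2486 for ERAP2, in counts scaled by size factors. The corresponding base means in the MC2580 experiment were 1288, 624, 2648, 4933, 5022, 853 and 1562. In the knockdown experiment 17337 protein-coding genes were above 0, with a median of 409. PSME1 exceeded 92.0% of these genes, PSME2 91.5%, ERAP2 78.8%, PSMB10 78.7%, PSMB8 70.6%, ERAP1 69.5% and PSMB9 56.2%. In the MC2580 experiment the lowest of these shares was again that of PSMB9, at 55.6%, and the highest was that of PSME2, at 89.9%.

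Levels of different genes were compared per kilobase of the MANE Select transcript. On this scale PSME2 was the highest of the 7 and ERAP1 the lowest in both experiments, and the full order, PSME2, PSME1, PSMB10, PSMB8, PSMB9, ERAP2 and ERAP1, was the same in both. It was also the same per kilobase of coding length. With the union of all annotated exons as length, PSME1 stood above PSME2 and ERAP2 above PSMB9 in both experiments, the latter at 358 against 200.1 in the knockdown experiment and 225 against 187 in the MC2580 experiment. In the MC2580 experiment PSMB10, at 1628 on that scale, also stood above PSME2, at 1402. Whether neighbours in this order differ beyond the spread between libraries cannot be said from pooled means. PSME2 ranked 365th among the 17298 protein-coding genes with such a value in the knockdown experiment, while ERAP1 ranked 6315th.

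The catalytic subunits of the immunoproteasome were less abundant as mRNA than those they replace. PSMB8 takes the place of PSMB5, which carries the chymotrypsin-like activity, and had 1428 base mean units per kilobase in the knockdown experiment against 5919 for PSMB5, a ratio of 0.241. In the MC2580 experiment these levels were 1146 and 6146, a ratio of 0.186. PSMB8 thus reached 19.4% and 15.7% of the sum of the pair. With the union of exons as length the ratios were lower, at 0.116 and 0.0893.

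PSMB9, which replaces the caspase-like subunit PSMB6, was the least abundant of the 5 proteasome genes among the 7. Its level per kilobase was 657 against 3673 for PSMB6 in the knockdown experiment, a ratio of 0.179, and 614 against 3847 in the MC2580 experiment, a ratio of 0.160. PSMB10 replaces PSMB7, the trypsin-like subunit, and came nearest to its counterpart. It stood at 2538 per kilobase against 7301 in the knockdown experiment and at 2710 against 7856 in the MC2580 experiment, ratios of 0.348 and 0.345. With the union of exons the ratios of PSMB9 to PSMB6 were 0.0957 and 0.0854, and those of PSMB10 to PSMB7 were 0.380 and 0.377.

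Summed over the 3 pairs, the immunosubunits made up 21.5% of the catalytic subunit level per kilobase in the knockdown experiment and 20.03% in the MC2580 experiment. These are shares of mRNA, and the subunits built into proteasomes were not measured. In the knockdown experiment the 14 subunits of the constitutive 20S core, with the 3 counterparts included, ranged from 1341 per kilobase (PSMA5) to 14824 (PSMA7) with a median of 5341. PSMB9 was below all 14 of them and PSMB8 below 13, PSMA5 being the exception, whereas 11 were above PSMB10. In the MC2580 experiment all 14 were above both PSMB8 and PSMB9 and 11 were above PSMB10. These positions depend on the length used. With no division by length PSMB8, PSMB9 and PSMB10 were below all 14 in both experiments. PSMB10 then had base means of 2479 and 2648, against lowest core values of 3026 and 3170, both for PSMB6. Per kilobase of coding length PSMB10 was again below all 14, at 3027 against 4221 for PSMB6 in the knockdown experiment. With the union of exons PSMB10 was at 1525 in that experiment, above PSMA4 at 1436 and PSMA5 at 892 among others. PSMB11 and PSMA8, core subunits known from the thymus and the testis, had base means of 0.43 and 0 in the knockdown experiment and of 0 in the MC2580 experiment.

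Both PA28 alpha-beta genes lay within the range of the 14 core subunits in each experiment. PSME1 (PA28 alpha) had 6304 base mean units per kilobase in the knockdown experiment and 5112 in the MC2580 experiment. PSME2 (PA28 beta) had 7397 and 6333. PSME1 therefore stood at 0.852 and 0.807 of PSME2, partners that assemble into the same ring. This order depends on the length used: with no division by length the ratio was 1.04 in the knockdown experiment and 0.982 in the MC2580 experiment, and with the union of exons it was 2.09 and 1.98. Among the other regulators of the barrel, levels per kilobase in the knockdown experiment ran from 904 for PSME4 (PA200), over 1108 for the inhibitor PSMF1, to 3344 for PSME3 (PA28 gamma, the nuclear cap), so that both PA28 alpha-beta genes were above all 3 on this scale. With no division by length both were below all 3 in the knockdown experiment, where the base means of PSME4, PSMF1 and PSME3 were 6556, 9035 and 10640. In the MC2580 experiment PSME4, at 4578, was instead below PSME1 at 4933 and PSME2 at 5022. Per kilobase of coding length both were below PSMF1 and PSME3, at 11113 and 13963 in the knockdown experiment. With the union of exons PSME2, at 1638 in that experiment, was below PSME3 at 2064, while PSME1, at 3425, was above it.

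The ER aminopeptidases were the lowest of the 7 genes per kilobase of transcript. ERAP1, which trims peptides down to a length suited to MHC class I, had 310 base mean units per kilobase in the knockdown experiment and 176 in the MC2580 experiment. ERAP2, which prefers basic residues at the amino end, had 485 and 305. ERAP1 was at 0.639 of ERAP2 in the former and at 0.578 in the latter, and stayed below ERAP2 with each of the 4 ways of handling length. Of the 8 other M1 aminopeptidases, the zinc enzyme family to which both belong, 7 reached 50 or more base mean units in each experiment. Levels per kilobase of all 8 in the knockdown experiment ran from 0.12 for ENPEP, the gene that stayed below 50, to 12875 for ANPEP. ANPEP is the myeloid surface enzyme CD13. LNPEP, the neighbour of ERAP2 on chromosome 5, was at 154.

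**Figure D1:**
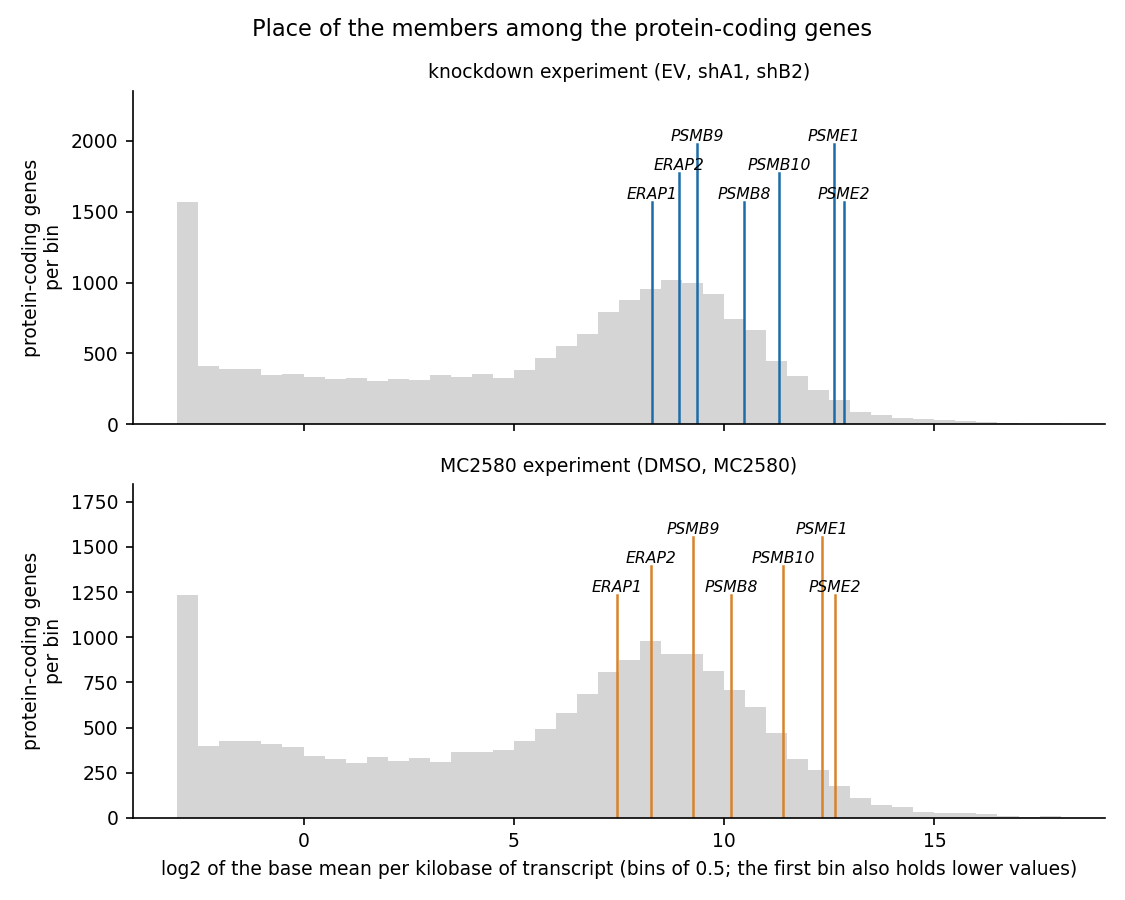
Histogram of the base mean per kilobase (log2 scale, bins of 0.5) over the protein-coding genes with a value above 0, 17298 in the knockdown experiment (top) and 17050 in the MC2580 experiment (bottom); the labelled lines mark the 7 genes. PSME1 and PSME2 stand in the upper tail, while ERAP1 and ERAP2 stand near the main peak of the distribution.

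The next steps of the pathway showed a wide range. All 11 peptide loading genes reached 50 base mean units in both tables, with levels per kilobase in the knockdown experiment from 70.1 for TAP2 to 80841 for the chaperone CALR. TAP1, the partner of TAP2 in the peptide transporter, had 383 per kilobase there, less than PSMB9 at 657. In the MC2580 experiment TAP1 had 263, against 614 for PSMB9. With no division by length TAP1 was the higher, with base means of 1029 and 705 against 668 and 624. With the union of exons TAP1 was at 217 against 200.1 in the knockdown experiment and at 149 against 187 in the MC2580 experiment. Per kilobase of coding length PSMB9 was the higher in both, at 1017 and 950.2 against 459 and 314. B2M, the light chain of MHC class I, had 20097 in the knockdown experiment. Of the 5 cytosolic peptidases listed, THOP1 was not analysed here, and the other 4 lay between 994 for TPP2 and 5194 for LAP3 in the knockdown experiment. The regulators IRF1 and NLRC5, which drive these genes in interferon responses, had 646 and 706 per kilobase in that experiment.

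The base means of both experiments were normalized separately, so they were set against each other only after scaling by the median ratio of the 10916 protein-coding genes that reached 50 base mean units in both, which was 1.05. On this scale the knockdown experiment was higher than the MC2580 experiment by a ratio of 1.68 for ERAP1 and 1.52 for ERAP2, while the ratio was 1.19 for PSMB8, 1.18 for PSME1, 1.11 for PSME2, 1.02 for PSMB9 and 0.893 for PSMB10. The ratio of ERAP1 exceeded that of 94.1% of these genes and the ratio of ERAP2 that of 90.5%. For PSMB5, PSMB6 and PSMB7 the ratios lay between 0.886 and 0.918. These ratios set all libraries of one experiment against all libraries of the other, so the hairpins, the compound, the transduction, the time and the sequencing cannot be told apart in them.

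Transcript length moved with these ratios. The genes were divided by length into 4 groups of near equal size. In the group of the shortest transcripts, up to 2030 bases, the median scaled ratio was 0.834, and it was 0.963, 1.07 and 1.18 in the following groups. Its part in the ratios was not tested. Set against the 500 genes of nearest transcript length, whose median is 1 on this scale, the ratio was above 1 for all 7 genes. It was 1.54 for ERAP1, 1.46 for PSME1, 1.45 for PSMB8, 1.43 for PSME2, 1.38 for ERAP2, 1.26 for PSMB9 and 1.11 for PSMB10. In that order the ratios exceeded those of 93.0%, 96.4%, 94.8%, 91.6%, 87.6%, 85.8% and 70.4% of the 500 genes. The 3 constitutive counterparts were above 1 on this scale too, between 1.10 and 1.16, and exceeded between 67.8% and 75.6% of their neighbours. The other 11 subunits of the constitutive core ran from 0.767 for PSMA4 to 1.42 for PSMB1. PSMB1 exceeded 93.6% of its neighbours, PSMA1, at 1.37, exceeded 92.0%, and PSMA4 exceeded 15.0%. High values on this scale were thus not particular to the 7 genes.

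**Figure D2:**
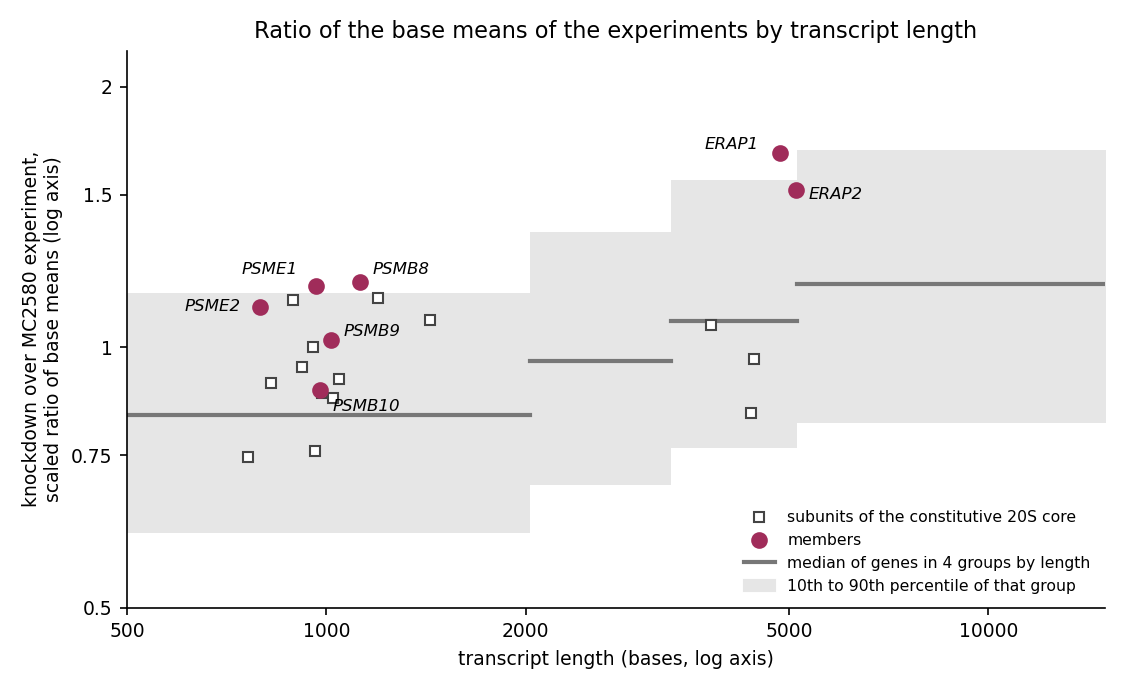
Ratio of the base mean of the knockdown experiment to that of the MC2580 experiment (log axis), scaled by the median of protein-coding genes, against transcript length in bases (log axis), for the 7 genes (filled circles) and the 14 subunits of the constitutive core (open squares). Grey lines and bands give the median and the 10th to 90th percentile of the genes in each of 4 groups by length; the medians go from 0.834 to 1.18, and ERAP1, PSMB8 and PSME1 lie above the bands of their groups.

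Reads of neighbouring genes may enter some of these values. The library kit named in the labels does not mark the strand. The annotated transcript of ERAP1 shares 200 bases with the main transcript of CAST on the opposite strand, whose base mean was 27.8% of that of ERAP1 in the knockdown experiment. PSMB10 shares 374 bases with AC040162.1, a gene model on the same strand with a base mean of 16.7% of that of PSMB10 there and 22.6% in the MC2580 experiment. PSME2 has 2 processed pseudogenes in the tables, of which PSME2P2 had base means of 177 and 114, or 3.02% and 2.27% of PSME2.

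The cells carried the marks of promyelocytes. Of 7 markers of that stage, 6 reached 50 base mean units in each experiment, led by MPO with 506765 and 824818, and ELANE stood at 1.10 and 3.87. Of the markers of other cell types, 1 of 3 for T cells, 1 of 3 for B cells, 3 of 4 for epithelium and 0 of 3 for fibroblasts reached 50 in each experiment. These were CD3D with base means of 866 and 869, CD79A with 121 and 116, EPCAM with 432 and 403, KRT8 with 152 and 143, and KRT18 with 906 and 668. In the same lists CD3E, MS4A1 and CDH1 were below 3 in both experiments. The part of other cell types in the levels above was not tested. The levels of GSE1 per library, which would check the hairpin labels, were not analysed here.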

How the data were processed

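Per the labels and the study's methods, mRNA-seq libraries of NB4 cells were mapped to hg38 with STAR (2.7), quantified with RSEM and compared in DESeq2, the annotation release being not given in the sources used here. The deposited signal used here is the base mean, for which the authors scaled counts by size factors and averaged them over all libraries of an experiment. Both base mean columns of the knockdown table are equal for every gene. The other 5 result columns per comparison hold the authors' log2 fold changes, standard errors, statistics and p-values and were not used. The planned count-based fit was not run, since it needs values per library. Lengths and places came from GENCODE release 44 on GRCh38, in which 60261 of 60603 identifiers were found, and 99.6% of protein-coding genes had a transcript length. Promoter windows came from RefSeq, and the printed stretches were checked against hg38. Coding lengths were taken from GENCODE. Calculations used Python 3.11.15 and pandas 2.3.3, and the functions for percentiles and exon union lengths were tested on made-up values.

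All 7 genes, their counterparts and fixed lists of pathway genes were named. The members and lists were chosen with earlier results of these data known, and the motifs after the levels were seen. Alternatives changed the genes ranked, the length and the scaling between tables. Some genes of these lists are not reported here.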

Additional observations from a re-analysis of the deposited data

How the results depend on the processing

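No paired analysis was possible because the base means pool all replicates, and the alternatives planned for counts per library were not run for the same reason. A ratio or level was counted as moved past 1.5 times and a percentile past 10 points. In each of the 3 catalytic pairs the immunosubunit stayed below its counterpart under every length tried. With the union of all exons as length, PSMB8 was at 0.116 and 0.0893 of PSMB5 and PSMB9 at 0.0957 and 0.0854 of PSMB6 (knockdown, then MC2580 experiment, as below). PSME1 passed PSME2 at 1.04 with no division by length in the knockdown experiment, and at 2.09 and 1.98 with the union of exons, which is 1776 bases for PSME1 and 3582 for PSME2. Levels per kilobase of union exons were 461 and 370 for PSMB8, 200.1 and 187 for PSMB9, 1525 and 1628 for PSMB10, 3425 and 2778 for PSME1, 1638 and 1402 for PSME2, 189 and 107 for ERAP1, and 358 and 225 for ERAP2, which puts ERAP2 above PSMB9. Per kilobase of coding length, PSMB9 had 1017 and 950.2, ERAP1 531 and 302, and ERAP2 863 and 543. When only genes reaching 50 base mean units were ranked, the percentiles fell to 54.4 and 49.99 for PSMB8, 31.9 and 31.4 for PSMB9, 67.0 and 70.2 for PSMB10, 52.7 and 39.1 for ERAP1, and 67.0 and 55.5 for ERAP2. Ranked per kilobase, they were 87.1 and 84.2 for PSMB8, 76.1 and 75.7 for PSMB9, and 93.1 and 92.9 for PSMB10. Against genes of like transcript length, a comparison added after the values were seen, the ratio of PSMB10 between experiments turned from 0.893 to 1.11. No value here has an error, because the base means pool all libraries, and the depth per library is unknown.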
